A study of Rattus norvegicus with 5 samples.

Results

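The Hox genes Hoxa5, Hoxa9, Hoxa10, Hoxc4, Hoxc5, Hoxc8, Hoxc9, Hoxc10 and Hoxd8 were followed across laser-captured cartilage of the rat jaw and knee. They were chosen by their high values in femoral cartilage relative to the jaw zones on these same arrays, so the values that set the femoral array apart describe that choice and are no test of it. Every probe set whose only symbol in the platform annotation is one of the 9 names was taken, which gave 9 probe sets of 8 genes among 31042 probe sets. Hoxc10 had no probe set under its name there, and a probe set that the paper pairs with it is given apart.

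The mandibular condylar cartilage (MCC) was captured layer by layer, with FZ for the fibrous surface, PZ for the proliferating cells below it, MZ for the mature chondrocytes and HZ for the hypertrophic ones at the bone. The femoral condylar cartilage (FCC) served as the control. All rats were wild type Sprague-Dawley males of 5 weeks, without any treatment, and the FCC capture held chondrocytes of its middle and deep layers. Sections of 7 µm were pooled, 30 per group by the labels and more for FZ by the methods, and their RNA, after 2 cycles of linear amplification, went on 1 array per group. The sources do not say how many animals a pool held, no difference has a replicate check, and no p-value is given.

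Hox genes encode transcription factors that bind DNA through a homeodomain and give cells along the body axis and the limbs their positional identity. In mammals they lie in 4 clusters, HoxA to HoxD, in which the order of the genes follows the order of their expression from anterior to posterior and, in the limb, from proximal to distal. Their proteins usually bind DNA together with TALE homeodomain partners of the Pbx, Meis and Pknox families. The skeleton of the jaw comes from cranial neural crest of the first pharyngeal arch, which is known for lacking Hox expression, whereas the femur forms from limb bud mesoderm, where Hox genes are active.

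Each deposited value is a log2 value relative to the median of that probe set over the 5 arrays, so the median is 0 by construction and only differences between arrays can be read. It holds no level, and a value near 0 in a zone does not say that the gene was silent there. Of the 31099 probe sets in the file, controls included, 11317 held exactly 0 in more than 1 array. Whether such ties come from a lower limit on the intensities was not tested. In 8 of the 9 probe sets FCC lay above every zone, by at least 2 on the log2 scale (4-fold) in each. Over the whole array 0.799% of probe sets were lower in every zone by this amount. Since the genes were chosen for it, nothing is read from the contrast between that share and the members' count. Taken zone by zone, 8 of the 9 probe sets were again lower by at least 2, in FZ (1.3% of all probe sets), PZ (1.62%), MZ (1.33%) and HZ (1.86%) alike. The median over the 8 genes of the mean of the zones minus FCC was −4.76, and the median over all 14217 genes was 0.02. Each array is a bulk sample, so fewer expressing cells and less RNA per cell cannot be told apart.

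**Figure D1:**
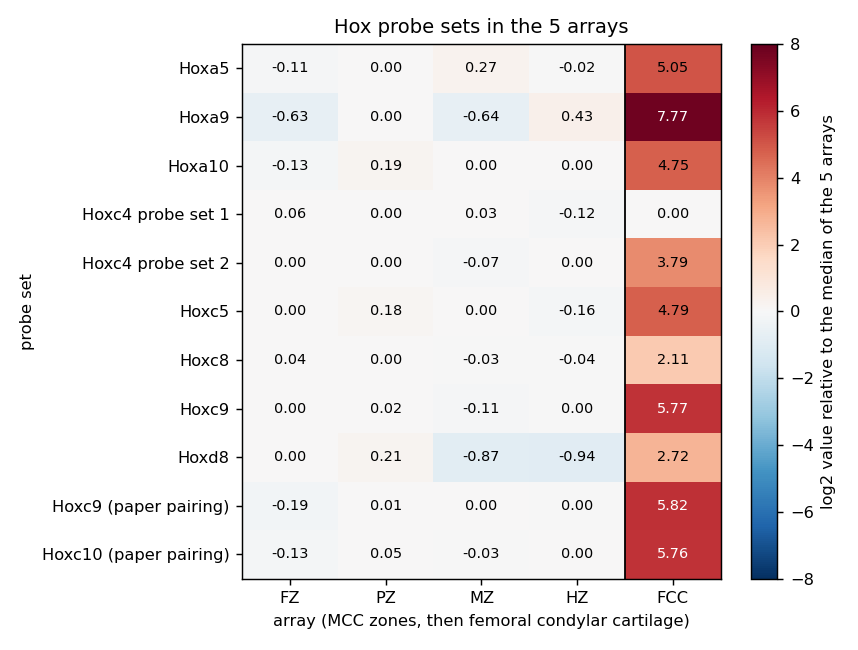
Log2 value relative to the median of the 5 arrays for each Hox probe set (rows) in the FZ, PZ, MZ, HZ and FCC arrays (columns), with 1 array per column. The FCC column reaches 7.77 for Hoxa9, while the zone columns stay between −0.94 and 0.43.

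Among the posterior members, Hoxa9, which specifies limb and lower trunk and also acts in blood progenitors, was at −0.63 in FZ, 0.00 in PZ, −0.64 in MZ, 0.43 in HZ and 7.77 in FCC (probe set 1382612_at). The FCC array alone was high, and the mean of the zones minus FCC was −7.98, the lowest of all 31042 probe sets. On the linear scale this is a ratio of 252 of FCC to the zones. Hoxa10, its neighbour in the cluster, which patterns the lumbar spine and the proximal limb in mouse, was at −0.13 in FZ, 0.19 in PZ, 0.00 in MZ, 0.00 in HZ and 4.75 in FCC (1398398_at). Again the zones lay close together and FCC stood alone.

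The promoters of Hoxa9 and Hoxa10 are shown because Hoxa9 had the highest FCC value and Hoxa10 is its direct neighbour, and Hoxd8 is added as the member that varied most among the zones. Sequences are from RefSeq (GRCr8), run from 250 bases before to 50 bases after a transcript start, and carry in capitals the matches to 6 motifs searched on both strands, which are the TATA box TATAAA, the CCAAT box CCAAT, the Meis motif TGACAG, the Pbx-Hox motif TGATTNAT, the posterior Hox motif TTTATNG and the retinoic acid receptor half-site AGGTCA. Hoxa10 has 2 annotated starts.
Hoxa9 (chr4:82656999-82657298, minus strand): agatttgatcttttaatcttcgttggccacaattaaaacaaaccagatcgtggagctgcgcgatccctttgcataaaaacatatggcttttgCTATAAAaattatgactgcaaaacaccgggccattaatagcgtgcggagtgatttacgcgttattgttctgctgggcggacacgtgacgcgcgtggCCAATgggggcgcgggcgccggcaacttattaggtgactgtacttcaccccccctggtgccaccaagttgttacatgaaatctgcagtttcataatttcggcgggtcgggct
Hoxa10, upstream start (chr4:82671441-82671740, minus strand): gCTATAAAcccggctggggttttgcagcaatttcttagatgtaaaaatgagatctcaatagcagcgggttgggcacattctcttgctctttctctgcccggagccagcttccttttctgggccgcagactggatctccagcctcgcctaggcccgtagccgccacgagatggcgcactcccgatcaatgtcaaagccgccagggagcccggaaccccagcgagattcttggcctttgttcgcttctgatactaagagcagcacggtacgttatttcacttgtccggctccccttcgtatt
Hoxa10, downstream start (chr4:82665873-82666172, minus strand): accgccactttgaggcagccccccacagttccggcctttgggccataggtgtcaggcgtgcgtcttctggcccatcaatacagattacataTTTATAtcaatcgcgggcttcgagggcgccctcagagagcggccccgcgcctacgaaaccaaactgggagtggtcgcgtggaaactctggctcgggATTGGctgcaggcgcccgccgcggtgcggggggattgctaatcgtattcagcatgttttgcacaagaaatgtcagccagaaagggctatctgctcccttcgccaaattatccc
Hoxd8 (chr3:80014973-80015272, plus strand): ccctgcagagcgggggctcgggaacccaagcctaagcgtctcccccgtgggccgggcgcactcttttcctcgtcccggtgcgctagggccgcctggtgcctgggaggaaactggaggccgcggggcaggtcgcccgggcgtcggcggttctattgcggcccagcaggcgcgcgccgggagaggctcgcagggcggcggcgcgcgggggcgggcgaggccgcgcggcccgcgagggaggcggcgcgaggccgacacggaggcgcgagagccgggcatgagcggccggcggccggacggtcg
Both Hoxa9 and the upstream start of Hoxa10 hold a TATA box overlapping a posterior Hox match on the other strand, 157 and 248 bases before the start. The TATA box was found in 14.2% of 33469 promoters of the same length, and the posterior Hox motif in 11.3%. Hoxa9 also holds a CCAAT box 62 bases before the start, a motif of 37.5% of promoters. The downstream Hoxa10 start has a TATA box 159 and a CCAAT box 63 bases before it, both on the opposite strand. None of the 6 motifs was found in the Hoxd8 window, which instead held 49 CG dinucleotides, against 21 for Hoxa9, 18 and 22 for Hoxa10, a median of 24.5 (range 9 to 42) over 16 other Hox promoters and a median of 7 over all promoters. The Hoxc4 window, the only other one listed for a member, held 6 CG dinucleotides and a retinoic acid receptor half-site (16.2% of promoters). Such matches describe letters in a window, and whether any protein binds there was not measured.

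Hoxc9, which sets thoracic motor neuron identity in mouse, was at 0.00 in FZ, 0.02 in PZ, −0.11 in MZ, 0.00 in HZ and 5.77 in FCC (1382182_at). Its zones spanned 0.14, and the mean of the zones minus FCC was −5.80. A second probe set, paired with Hoxc9 in the paper but not in the annotation, was at −0.19 in FZ, 0.01 in PZ, 0.00 in MZ, 0.00 in HZ and 5.82 in FCC. The probe set that the paper pairs with Hoxc10, a gene of lumbar and hindlimb identity in mouse, was at −0.13 in FZ, 0.05 in PZ, −0.03 in MZ, 0.00 in HZ and 5.76 in FCC. In all 3 profiles FCC lay far above zones within 0.20 of each other.

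Of the central members, Hoxd8 was the one whose superficial and deep zones lay apart. It was at 0.00 in FZ, 0.21 in PZ, −0.87 in MZ, −0.94 in HZ and 2.72 in FCC (1374057_at), so both superficial zones lay above both deep zones while all 4 were below FCC. Hoxc8, which patterns thoracic vertebrae in mouse, was at 0.04 in FZ, 0.00 in PZ, −0.03 in MZ, −0.04 in HZ and 2.11 in FCC (1371281_at). It had the smallest difference among the called probe sets, −2.12, or a ratio of 4.33 of FCC to the zones.

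Of the anterior members, Hoxa5, which shapes the cervicothoracic spine and the lung in mouse, was at −0.11 in FZ, 0.00 in PZ, 0.27 in MZ, −0.02 in HZ and 5.05 in FCC (1370969_at). Hoxc5, which like Hoxc4 belongs to the cervical and upper thoracic level in mouse, was at 0.00 in FZ, 0.18 in PZ, 0.00 in MZ, −0.16 in HZ and 4.79 in FCC (1393876_at). In both, FCC was far above zones that differed little. For Hoxc4 the probe sets disagreed. The first (1371285_at) was at 0.06 in FZ, 0.00 in PZ, 0.03 in MZ, −0.12 in HZ and 0.00 in FCC, and the second (1385927_at) was at 0.00 in FZ, 0.00 in PZ, −0.07 in MZ, 0.00 in HZ and 3.79 in FCC. The mean of both, −1.91 for the zones minus FCC, therefore describes neither of them. In the RefSeq annotation Hoxc4 and Hoxc5 lie inside the span of Hoxc6, with which Hoxc4 shares one end, and Hoxa5 lies inside the span of Hoxa3 and of the noncoding Hoxaas3. Signal of these probe sets could come from either gene of such a pair, and no probe set of Hoxc6 or Hoxa3 was listed.

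Control probe sets were compared between the arrays. The 18 hybridization control probe sets, several per transcript, measure foreign transcripts spiked into every sample. These controls had a mean of −0.15 in FZ, 0.44 in PZ, −0.02 in MZ, −0.03 in HZ and 0.50 in FCC. With the arrays shifted so that these controls matched, the median of all probe sets lay at 0.45 for the zones minus FCC and that of the chosen Hox genes at −4.32. Hoxc8 then lay at −1.68 and no longer passed the threshold, which left 7 of the 9 probe sets called, while 0.506% of all probe sets were. For beta-actin, the 5′ value minus the 3′ value, each relative to its own median, was 0.14 in FZ, 0.14 in PZ, −0.10 in MZ, −0.24 in HZ and 1.24 in FCC. For GAPDH the same difference did not set FCC apart and was −0.07 in FZ, 1.36 in PZ, −0.13 in MZ, 0.27 in HZ and −0.21 in FCC. The part of these features in the Hox values was not tested.

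Differences among the MCC zones were not used to choose the genes, but a choice for low zone values relative to FCC may favour small zone ranges. Hoxd8 and Hoxa9 varied by about 1 on the log2 scale between zones, and the other members by less. Highest minus lowest zone was 1.14 for Hoxd8, 1.08 for Hoxa9, 0.38 for Hoxa5, 0.34 for Hoxc5 and 0.32 for Hoxa10. It was 0.17 and 0.07 for the Hoxc4 probe sets, 0.14 for Hoxc9 and 0.08 for Hoxc8. The median over all probe sets was 0.43, and 7 of the 9 member probe sets were within 0.5 in all zones, against 56.2% of the array. None of the 9 differed by 2 or more between any zones (2.81% of all probe sets), and 2 did at a threshold of 1 (17% of all probe sets). In so few probe sets both counts are near these shares. With 1 array per zone it is not known how much of a range near 1 is error. Some members held exactly tied zone values, such as Hoxc4 (1385927_at) at 0.00 in FZ, PZ and HZ. As the values hold no level, a small range cannot be told from signal near background in all zones.

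**Figure D2:**
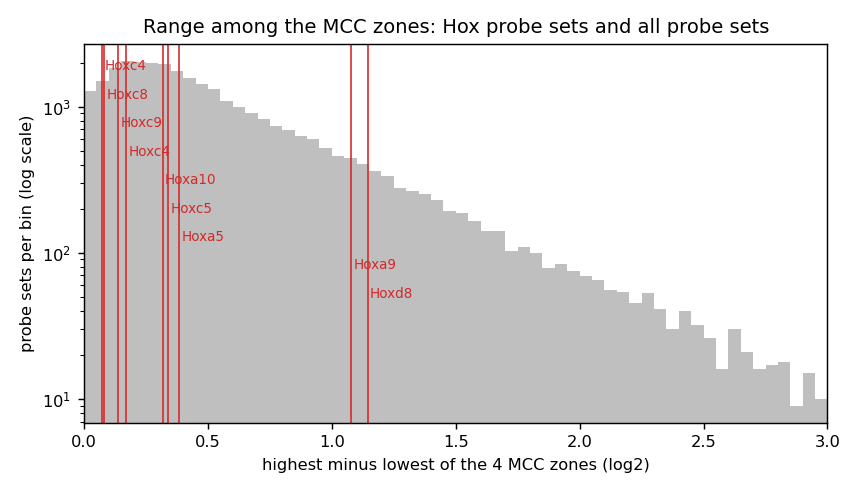
Highest minus lowest of the 4 MCC zones on the log2 scale (x axis) for all probe sets (grey bars, number per bin on a log axis) and for the 9 Hox probe sets (red lines). Hoxa9 at 1.08 and Hoxd8 at 1.14 lie apart from the other 7, which are at 0.38 or below.

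For Hoxd8 the mean of FZ and PZ lay 1.01 above that of MZ and HZ. Over the whole array 2.08% of probe sets were higher in the superficial zones by at least 1 and 3.23% were lower. PZ minus HZ was 1.14, PZ minus MZ 1.08, FZ minus HZ 0.94 and FZ minus MZ 0.87. Over the whole array 11.2% of probe sets differed by at least 1 between PZ and HZ, in either direction, and 9.23% between PZ and MZ. MZ minus HZ, at 0.06, and FZ minus PZ, at −0.21, were small beside these. Tendon and fibrous tissue markers moved the same way, with a median of 2.86 for superficial minus deep zones over 7 genes, 6 of which were higher by at least 1 (2.24% of all genes), among them Tnmd, a membrane protein of tendon cells. Leukocyte markers moved the other way, with a median of −1.54 and 7 of 8 genes lower by at least 1 (3.78% of all genes). Both lists were made with earlier results of these data known. The tendon list holds genes such as Tnmd and Dpt that the paper ranks among its largest zone differences, so its direction was known beforehand. The part of other cells in the Hoxd8 values was not tested.

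Hoxa9 followed no such order. HZ was its highest zone, 1.08 above MZ, 1.06 above FZ and 0.43 above PZ. Between MZ and HZ 1.13% of all probe sets differed by 1 or more in either direction, and between FZ and HZ 6.27% did. Between any 2 zones 17% of all probe sets did. Since Hoxa9 is also known from blood progenitors, markers of blood cells are set beside it. The median of 8 leukocyte markers was 0.00 in FZ, −0.68 in PZ, 0.89 in MZ, 1.31 in HZ and −1.05 in FCC, and that of 6 erythroid markers was −0.63 in FZ, −0.69 in PZ, 0.72 in MZ, 1.40 in HZ and 0.00 in FCC. HZ was the highest zone in Hoxa9 and in both lists. MZ was second in both lists and level with FZ for Hoxa9. FCC had the highest Hoxa9 value, was lowest for the leukocyte median and lay above FZ and PZ for the erythroid median. Both lists were made with earlier results of these data known. They hold Car1, Slc4a1 and Klf1, which the paper ranks highest in HZ, and Plek, which it ranks highest in MZ. The order of the zones in them is therefore no independent finding. None of the 8 leukocyte markers was lower in the mean of the zones than in FCC, and 7 were higher by at least 1 (5.13% of all genes). Of the 6 erythroid markers 0 were higher and 0 lower by at least 1 (4.7% of all genes were lower). Markers of blood progenitors were not among the lists. How much blood cells add to the Hoxa9 value in HZ was not tested.

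Within the family the chosen genes lay in 3 of the 4 clusters. In HoxA, on chromosome 4, Hoxa5, Hoxa9 and Hoxa10 were lower in the zones by at least 2. Between them Hoxa7 was at 0.00 in all 4 zones and at 1.30 in FCC, and beyond them Hoxa11, a gene of the forearm and lower leg segment, had a mean of the zones of −0.31 relative to FCC. Its antisense transcript Hoxa11-as was at −0.17, and Hoxa3l1 at −1.09. In HoxC, on chromosome 7, the 4 genes with a probe set are all among the chosen ones. Of these, Hoxc5, Hoxc8 and Hoxc9 were lower in the zones by at least 2, and Hoxc4 by only one of its probe sets. HoxD, on chromosome 3, held Hoxd8 at −3.12, whereas its neighbours were at −1.11 (Hoxd4) and −0.34 (Hoxd9).

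HoxB, on chromosome 10, differed little between the tissues. For the 6 HoxB genes with a probe set the mean of the zones minus FCC was −0.27 for Hoxb2, 0.04 for Hoxb3, −0.46 for Hoxb4, −0.55 for Hoxb6, −0.30 for Hoxb7 and 0.15 for Hoxb13. Hoxb6 and Hoxb7 belong to the same body level as the central genes of the other clusters. The rest of HoxD gave 0.00 for Hoxd1, −0.65 for Hoxd3, −0.21 for Hoxd10 and 0.02 for Hoxd11. As with Hoxc4, the probe sets of Hoxd3 disagreed, at −1.29 and 0.00.

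Of 14 Hox genes outside the chosen ones, 0 were lower in the mean of the zones by at least 2 and 2, Hoxa7 and Hoxd4, by at least 1, against 1.43% and 4.7% of all genes. The values nearest to each other were −2.12 for Hoxc8 among the chosen genes with agreeing probe sets and −1.30 for Hoxa7 among the others. The genes were chosen on this same contrast, so the count of 0 and this gap follow from the choice. Members of the same paralogue group in different clusters arose from one ancestral gene, and how close their differences lay varied by group. In group 5 the mean of the zones minus FCC was −5.01 for Hoxa5 and −4.79 for Hoxc5. In group 9 the difference was −7.98 for Hoxa9, −5.80 for Hoxc9 and −0.34 for Hoxd9, and in group 10 it was −4.74 for Hoxa10 and −0.21 for Hoxd10. In group 8 it was −2.12 for Hoxc8 and −3.12 for Hoxd8, and in group 4 −1.91 for Hoxc4, −1.11 for Hoxd4 and −0.46 for Hoxb4.

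**Figure D3:**
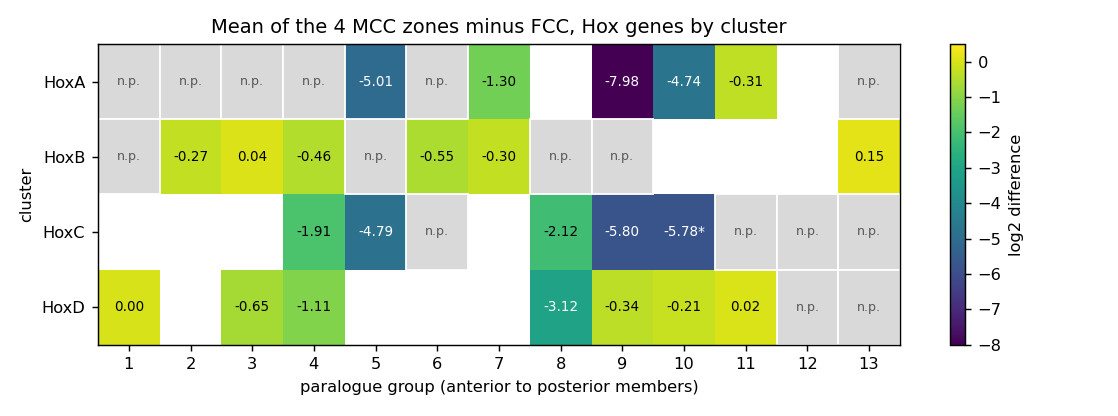
Mean of the 4 MCC zones minus FCC on the log2 scale for Hox genes, with 1 row per cluster and 1 column per paralogue group (n.p. marks genes without a listed probe set, white marks places with no annotated gene, and the asterisk marks the pairing of Hoxc10 taken from the paper). The lowest values are −7.98 for Hoxa9 and −5.80 for Hoxc9, Hoxd8 stands at −3.12, and the HoxB genes lie between −0.55 and 0.15.

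The TALE partners of Hox proteins split in the same comparison. Meis2 was at −0.16 in FZ, 0.09 in PZ, 0.00 in MZ, −0.04 in HZ and 3.61 in FCC. Meis1, which with Hoxa9 forms a well-known pair in blood progenitors, was at 0.21 in FZ, −0.50 in PZ, 0.00 in MZ, −0.99 in HZ and 2.57 in FCC. Both are known to mark the proximal limb bud, and in both FCC alone was high. Pknox2 was at 0.98 in FZ, 0.00 in PZ, −0.18 in MZ, −0.24 in HZ and 1.94 in FCC. For the other 5 partners with a probe set the mean of the zones minus FCC was 0.51 for Pbx3, 0.33 for Meis3, 0.22 for Pbx2, 0.12 for Pbx4 and −0.07 for Pknox1, the mean of probe sets at −0.28 and 0.15. In all, 3 of 8 partners were lower in the zones by at least 1 and 0 were higher, against 4.7% and 5.13% of all genes, and their median was 0.03. After the shift by hybridization controls that median was 0.47.

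The chromatin regulators that keep Hox clusters silent or open were set beside them. Over all genes 4.7% were lower and 5.13% higher in the zones by at least 1, so in lists of this size a count of 0 is near the share of all genes. Of 20 Polycomb genes, which encode the complexes that silence Hox genes outside their domain, 0 were lower and 0 higher in the zones by at least 1, with a median of 0.03. Phc2 was at 0.91, Eed at 0.73, Suz12 at 0.58 and Phf19 at −0.53. Of 9 trithorax genes and H3K27 demethylases, which keep Hox genes active, again 0 passed in either direction (median 0.06), with Wdr5 at 0.69, Psip1 at 0.30, Men1 at −0.26 and Ash2l at −0.19. Genes known to act upstream of Hox in axis and limb, such as the enzymes of retinoic acid, likewise gave 0 of 12 in either direction. Among them Aldh1a2, which makes retinoic acid, was at 0.90, the growth factor Gdf11 at 0.74, Cyp26b1, which degrades retinoic acid, at −0.70 and the receptor Rara at −0.18.

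Other positional genes showed a few large differences. Of 17 limb patterning genes, 2 were lower in the zones by at least 1 (4.7% of all genes) and 1 was higher (5.13%), with a median of 0.06. Tbx18 was at −4.05, Tbx4, the hindlimb T-box factor, at −2.73, and Prrx2 at 1.17. Tbx4 was at −0.11 in FZ, 0.00 in PZ, 0.00 in MZ, 0.00 in HZ and 2.70 in FCC, so FCC alone was high. Of 26 craniofacial genes listed, 11 were measured, with a median of −0.02. Of these 11, 0 were lower by at least 1 (4.7% of all genes) and 3 higher (5.13%). The 3 were Dlx1, a factor of the pharyngeal arches, at 3.09, Dlx3 at 1.66 and Pax9 at 1.63. Dlx1 was at 0.97 in FZ, 0.00 in PZ, −0.12 in MZ, 0.00 in HZ and −2.88 in FCC, where it was lowest.

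**Figure D4:**
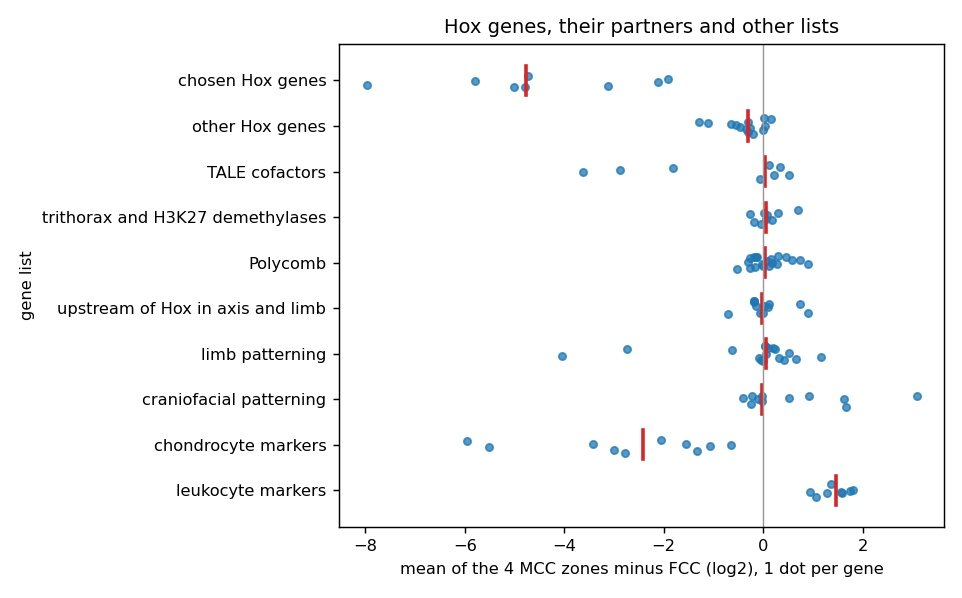
Mean of the 4 MCC zones minus FCC on the log2 scale (x axis) for 10 gene lists, in which each dot is a gene and the red bars are medians. The chosen Hox genes have a median of −4.76, and among the TALE cofactors Meis2, Meis1 and Pknox2 lie apart from the other 5.

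Genes reported in bone and cell lines as targets of Hoxc8, Hoxa10 or Hoxa5 had a median of 0.64 for the mean of the zones minus FCC. Of 8 with a probe set, 1 was lower in the zones by at least 1 (4.7% of all genes) and 2 were higher (5.13%), namely Itgb3 at 1.90 and Alpl at 1.09. Tnfrsf11b, the decoy receptor osteoprotegerin, was at 0.00 in FZ, −1.06 in PZ, 0.01 in MZ, −0.63 in HZ and 2.82 in FCC. Itgb3, an integrin of platelets and osteoclasts, was at 0.00 in FZ, −0.16 in PZ, 0.50 in MZ, 0.77 in HZ and −1.62 in FCC.

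The label of the FCC array was set against cartilage markers. Of 10 chondrocyte markers 9 were lower in the mean of the zones by at least 1, against 4.7% of all genes (median −2.41). Chad was at −5.96 and Cnmd at −5.52, so the Hox genes were not alone in their direction. For some markers this mean hides differences among the zones. Col9a3 was at −4.07 in FZ, 0.05 in PZ, 0.00 in MZ, −1.66 in HZ and 0.64 in FCC. Chad, at 0.64 in FZ, −0.63 in PZ, 0.00 in MZ, −0.70 in HZ and 5.79 in FCC, was low in every zone. Of the 10 markers, 7 differed by at least 2 between some pair of zones, against 3.11% of all genes. Of the 8 chosen Hox genes 0 did, with the limits on their zone ranges given above. With 3.11% of all genes doing so, a count of 0 in 8 genes is near that share. Markers of other cells that could be captured with the femoral sections were counted in the same way. Lower in the zones by at least 1 were 2 of 6 skeletal muscle genes (median 0.05), which ran from Tnnt3 at −1.21 to Acta1 at 0.71. The count was 0 of 6 for adipocyte genes (median −0.36) and 0 of 5 for smooth muscle and pericyte genes (median −0.36). For endothelial genes it was 0 of 5 (median 0.56) and for osteoblast genes 0 of 3 (median 0.65). With 4.7% of all genes lower, a count of 0 in such short lists is near that share. The part of such cells in the Hox values was not tested. Clu, the only gene of the synovial lining list with a probe set, was at −2.09, and from 1 gene nothing is read about that tissue. As the values hold no level, whether a marker was absent from an array cannot be read from them.

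The genes with the nearest profile were found by the Euclidean distance between the 4 zone minus FCC differences of a gene and the median of the chosen Hox genes, over all 14217 genes and 5 arrays, as a description. Rnf39, a RING finger protein, was nearest at a distance of 0.30, and lay between −4.73 (FZ) and −4.56 (MZ) relative to FCC. It was followed by Sectm1b at 0.49, Pcp4, a calmodulin-binding peptide, at 0.67, Cytl1, a secreted protein of chondrocytes, at 0.74, and Sim2, a transcription factor, at 0.78. Next came Apobec2 at 0.88, Ifitm10 at 0.89, Rflna at 1.05, Tc2n at 1.22 and Chadl at 1.28. The chosen genes themselves lay between 0.11 (Hoxa10) and 6.50 (Hoxa9) from that median, and 316 other genes lay within 6.50.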

How the data were processed

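The authors deposited log2 values from 5 Affymetrix rat arrays, with 1 array per group. They describe MAS5 background correction and RMA, that is, quantile normalization across arrays and log2, with each probe set then set relative to its median over the 5 arrays (values and submitters' processing notes). The values are therefore differences between arrays, and no expression level, signal over background or coordinate could be read from them. For the genome build, the sources used here give none. All 31042 probe sets other than 57 controls were kept. Members were the probe sets listed with 1 of 9 Hox symbols alone in the platform table. Symbols were updated through RefSeq (GRCr8), used for names and gene order. Members and gene lists were chosen with earlier results of these data known.

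The software was Python 3.11.15 with pandas 2.3.3, numpy 2.4.6 and, for the plots, matplotlib 3.10.9. A gene is the mean of its probe sets. A log2 difference of 2 (4-fold), as in the methods, was counted for probe sets, and of 1 for gene lists. A single array per group allows no test, and the number of arrays limits the precision. Alternatives were the thresholds, the scaling of the arrays, the zones averaged and the most variable probe set per gene. The functions were tested on simulated data. Named were all members and other Hox genes, the cofactors, up to 4 genes of each other list with the largest difference, and the 10 genes with the nearest profile. Genes without a listed probe set were not analysed here, except Hoxc10 through the pairing given in the paper.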

Additional observations from a re-analysis of the deposited data

How the results depend on the processing

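With 5 arrays and 1 per group, no result has a replicate error, and a change between settings was judged by how far probe sets of the same gene differ, with a median SD of 0.26 on the log2 scale over 4525 genes. Of 28 values under alternative settings, 24 stayed within this bound or within 1.5 times the count. Some of the 24 were bound to stay. Centring each array on its median changed no value, and a count of 0 at a threshold of 2 cannot rise at 3. After the arrays were shifted to equal hybridization controls, the median of the Hox genes was −4.32 instead of −4.76, the median of the TALE cofactors 0.47 instead of 0.03, and the median of all probe sets 0.45 instead of 0.01. This difference is the shift itself. At a threshold of 1 in place of 2, 2 member probe sets differed between some pair of zones instead of 0, and 2 other Hox genes were lower in the zones instead of 0. Adding the probe sets paired in the paper was chosen after seeing the data and gave 10 called probe sets in place of 8. No paired analysis was possible because each group has 1 array.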
